A study of Mus musculus with 14 samples.

Results

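The genes described here are those of the KEGG spliceosome set, as the authors deposited it with their count table, without the heat shock genes that the set also holds. All 123 genes of the set were in the table of 19525 genes, 5 of them carried a symbol beginning with Hsp, and 118 remained. Every one of the 118 had a mean of at least 5 CPM (the count after scaling every library to the same size), so none fell in the class below that level, and 10224 genes of the whole table reached it.

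The spliceosome removes introns from pre-mRNA. It is built anew on each intron from small nuclear ribonucleoproteins (snRNPs), each a short RNA in a ring of Sm or LSm proteins with further proteins of its own. U1 snRNP marks the 5′ splice site and U2 snRNP the branch point, the U4/U6.U5 tri-snRNP then joins, and the Prp19 complex and a series of RNA helicases turn the assembly into an active enzyme and take it apart again. SR proteins and hnRNPs bind the transcript and steer which sites are used, while the cap binding complex, the exon junction complex and the THO complex tie splicing to capping, export and decay.

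The RNA came from spheroids of 4T1, a mouse line of triple-negative breast cancer, kept for 5 days in a medium that mimics lung interstitial fluid. The non-targeting control hairpin was studied in 4 samples that received 700 µM aspartate (ASP shSCR) and in 3 that received none (NoASP shSCR). Aspartate at 700 µM was also given to 3 samples whose hairpin targets Grin2d, which encodes part of the NMDA-type glutamate receptor (ASP shGRIN2D), and to 4 whose hairpin targets Dhps, which encodes the enzyme that starts eIF5A hypusination (ASP shDHPS). All 4 groups were polyclonal, puromycin-selected lentiviral lines, each target gene had a single line, and polyadenylated RNA was taken from cytosolic lysates. Replicates were separate spheroid pellets of these lines, so the spread and the p-values are those between pellets of the same line.

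The libraries held 12731123 to 23231378 counts, of which the 118 genes took 1.49% to 1.69%. Dhps fell by 1.48 on the log2 scale in ASP shDHPS (adjusted p = 8.31e-06), whereas Grin2d, at 2.06 to 6.95 CPM in all libraries, had a log2 fold change of -0.55 in ASP shGRIN2D that did not pass the test (adjusted p = 0.516). All 7 epithelial markers were present, with a summed level of 5018 to 5149 CPM in ASP shSCR, 4944 to 5173 in NoASP shSCR, 3727 to 4031 in ASP shGRIN2D and 3798 to 4451 in ASP shDHPS. Of 12 markers of fibroblasts, immune, endothelial and red blood cells, 7 were in the table, and their sum of 170 to 294 CPM came almost wholly from Thy1 and Pdgfra, since Dcn reached at most 1 count, Cdh5 3, Hba-a1 8, Pecam1 10 and Ptprc 12. The paper's 4T1 cells for flow cytometry carried a Thy1.1 reporter, and it does not state whether these spheroids did. The part of such a reporter in the Thy1 level was not tested. Along the first principal component of the 118 genes, which held 50.2% of their variance, replicate 2 of ASP shSCR (-2.24) and replicates 2 and 4 of NoASP shSCR (-1.59 and -1.53) lay at one end and replicates 1 and 3 of ASP shDHPS (2.65 and 1.50) at the other. In bulk RNA, fewer cells making a transcript and less transcript per cell cannot be told apart.

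Spliceosome genes were abundant in these spheroids. Their median level was 85.2 CPM, against 42.2 CPM for all genes at 5 CPM or more, and 41.9 against 13.8 CPM per kb of transcript. The lowest count of any of them in any library was 79 and the highest 21932. The spread within groups, a median SD of 0.139 on the log2 CPM scale, was close to the 0.154 of all genes at that level.

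**Figure D1:**
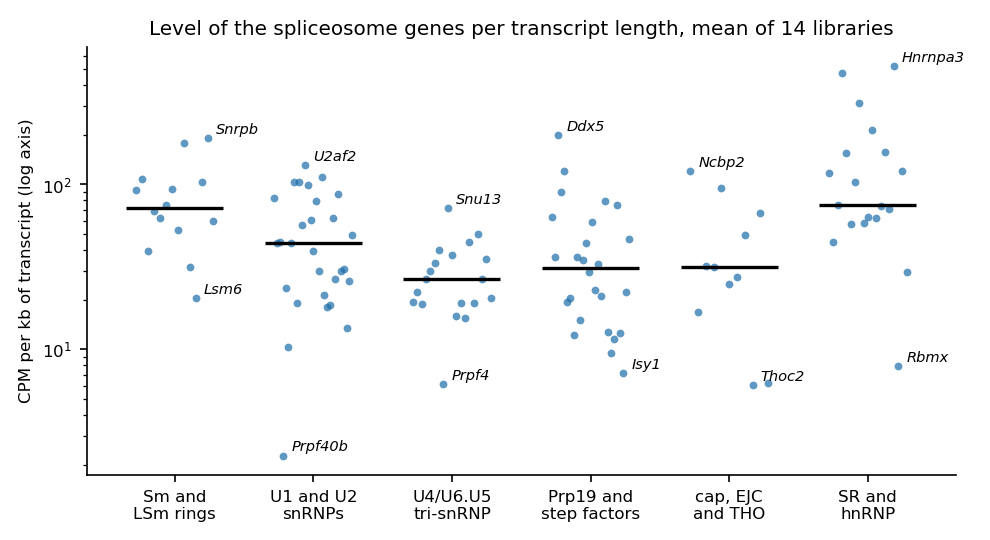
Mean level over 14 libraries of each of the 118 spliceosome genes (points) in CPM per kb of transcript on a log axis, by role, with the median of each role as a bar and the highest and lowest gene of each role named. The medians run from 26.7 for tri-snRNP proteins to 74.9 for SR and hnRNP proteins, and single genes from 2.27 (Prpf40b) to 520 (Hnrnpa3).

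Per length of transcript, the RNA-binding proteins and the ring proteins stood highest. The 19 SR and hnRNP genes had a median of 74.9 CPM per kb and the 14 Sm and LSm ring genes 72.0, followed by 43.9 for the 29 proteins of U1 and U2 snRNPs and their partners, 31.6 for the 11 cap binding, exon junction and THO proteins, 31.3 for the 26 genes of the Prp19 complex, its partners and the step factors, and 26.7 for the 19 tri-snRNP proteins. Hnrnpa3 (520 CPM per kb), Hnrnpa1 (472) and Srsf1 (310), all regulators of splice site choice, led the list, and in CPM the highest means were those of Hnrnpa1 (905), Hnrnpa3 (860) and Ddx5 (709), an RNA helicase that also acts in transcription. Prpf40b, a partner of U1 snRNP, was lowest at 7.50 CPM or 2.27 CPM per kb, 229-fold below Hnrnpa3 per kb. Among the core proteins of the exon junction complex, Magoh had 67.4 CPM per kb and its paralogue Magohb 16.9, whereas Tra2a and Tra2b, 2 SR-like proteins, lay side by side at 62.5 and 58.0. Reads of near-identical copies, as in the Hnrnpa1, Hnrnpa3, Magoh and Rbmx families, were divided by estimation in the authors' counting, which leaves their levels uncertain.

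Aspartate was the first comparison, ASP shSCR against NoASP shSCR. No spliceosome gene passed the test (0 of 118, edgeR quasi-likelihood test with Benjamini-Hochberg adjustment over 19525 genes, every adjusted p = 1), nor did any of the 10224 genes at 5 CPM or more (0%) or of all genes tested (0%). DESeq2 also gave 0. With the replicate number as a block, which pairs these libraries, 0 members were called, while 2 genes of the whole table were called over all 14 libraries and 64 of 19238 (0.333%) on the 7 shSCR libraries alone. At an unadjusted p under 0.05 there was 1 member (0.847%, against 0.597% of genes at that level), and the groups did not overlap for 1, the helicase Dhx16, lower with aspartate (0.847%, against 1.91%). The median log2 fold change was 0.00 for the 118 genes and 0.00 for all genes at their level, and 59 of 118 (50.0%, against 51.5%) were above 0. For 117 of the 118 genes the 95% interval of the fold change lay within 1.5-fold in either direction, Magohb being the exception.

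The ring proteins were the role that departed most from the others in this comparison, although none passed the test. Of the 14, 13 had a log2 fold change above 0 and the median was 0.12, and 13 were above 0 without replicate 2 of both control groups too (median 0.15). With the replicate block, which treats same-numbered libraries as pairs, 12 were above 0 (median 0.095). The groups overlapped in the median deviation of the ring genes from their mean over all libraries. It was 0.17, -0.27, 0.02 and -0.03 with aspartate (replicates 1 to 4) and -0.20, 0.07 and -0.32 without it (replicates 2 to 4). Of all genes at 5 CPM or more with transcripts up to 1663 nt, 67.2% were above 0 with aspartate. Lsm3, part of the LSm ring that holds U6 RNA, had the smallest p of all members. Its values were 44.3, 38.4, 40.3 and 42.6 CPM with aspartate and 32.3, 41.6 and 30.7 CPM without it, a log2 fold change of 0.25 ± 0.11 (SE). The groups overlapped, because replicate 3 without aspartate was as high as the treated libraries. Snrpe, an Sm protein, had 108, 82.0, 86.5 and 81.7 CPM with aspartate and 83.2, 89.5 and 63.4 CPM without, a difference of 0.19 ± 0.13. With 1 library left out, Lsm3 lay between 0.16 and 0.39 and Snrpe between 0.05 and 0.29. The other members with the smallest p were the helicase Ddx46 (-0.16), the tri-snRNP proteins Prpf6 (-0.15) and Prpf8 (-0.19), the Prp19 partners Cwc15 (0.14) and Syf2 (0.13) and the SF3B protein Sf3b5 (0.17). Of the 29 genes of U1 and U2 snRNPs 8 were above 0, with a median of -0.04.

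**Figure D2:**
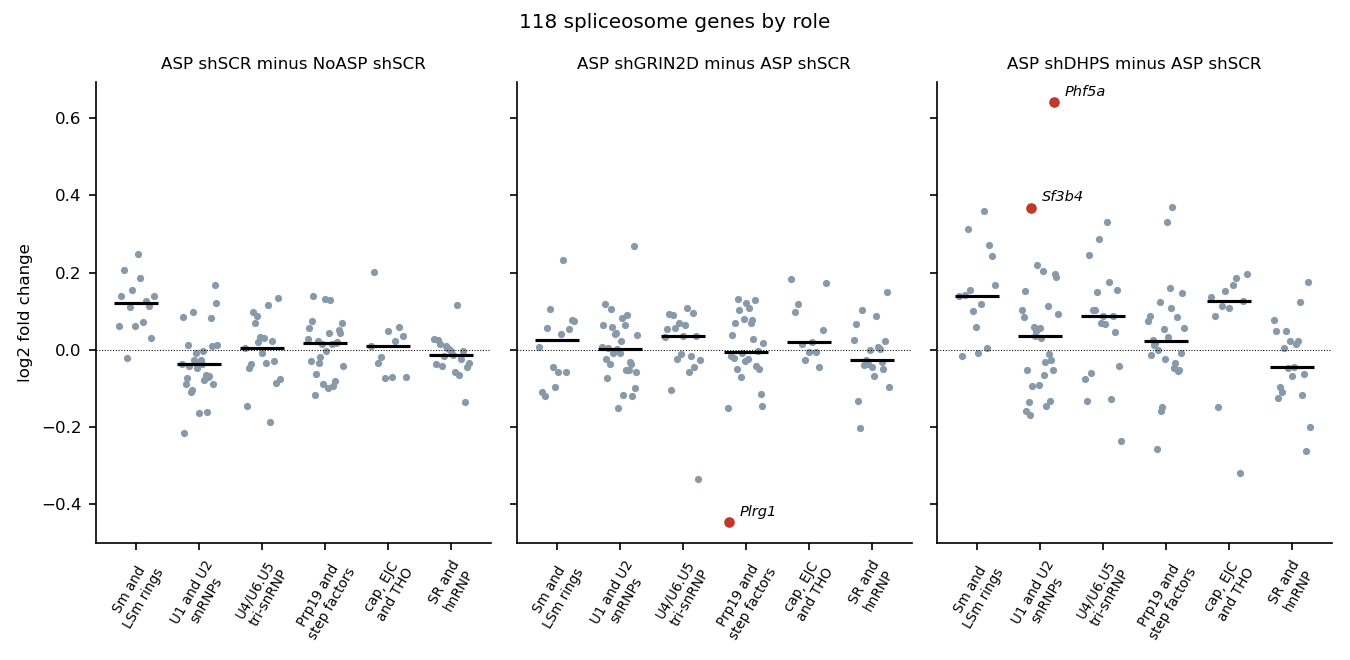
Log2 fold changes of the 118 spliceosome genes (points) by role in the 3 comparisons with ASP shSCR, with the median of each role as a bar and genes past an adjusted p of 0.05 in red. The red genes are Plrg1, lower in ASP shGRIN2D, and Phf5a and Sf3b4, higher in ASP shDHPS. The comparisons share the 4 ASP shSCR libraries.

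With the hairpin against Grin2d, compared with ASP shSCR, a single spliceosome gene was lower. Plrg1, a WD repeat protein at the core of the Prp19 complex, fell by 0.45 ± 0.11 (SE) on the log2 scale (95% interval -0.67 to -0.23, adjusted p = 0.0388). It was at 52.2, 50.3 and 53.3 CPM in ASP shGRIN2D, against 69.3, 66.8, 70.2 and 76.7 CPM in ASP shSCR, 64.4, 71.3 and 68.4 CPM in NoASP shSCR and 92.9, 70.0, 71.1 and 66.7 CPM in ASP shDHPS. All 3 libraries with the Grin2d hairpin lay below all 11 others. The adjusted p rose to between 0.0699 and 0.180 when any of replicates 1, 3 and 4 of ASP shSCR or any replicate of ASP shGRIN2D was left out, while the fold change stayed between -0.47 and -0.41.

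That was 1 of 118 members called (0.847%), lower, where 1.89% of genes at 5 CPM or more were called in either direction and 1.29% lower, and 1.16% of all genes tested in either direction. DESeq2 called the same gene and no other member (0.847%, against 2.25% of all genes tested). At an unadjusted p under 0.05 there were 2 members (1.69%, against 13.4%), and the CPM of the groups did not overlap for 6 (5.08%, against 17.1%). The median log2 fold change was 0.00 over the members and 0.01 over all genes at that level, 61 members were above 0 (51.7%, against 51.6%), and 5 members (4.24%) differed by more than 0.2 on the log2 scale, against 23.5% of genes at that level. The 95% interval lay within 1.5-fold for 117 members, all but Plrg1 (99.2%, against 87.0% of genes at that level).

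After Plrg1 the smallest p was that of Snrnp27, a protein of the tri-snRNP, at 27.8, 32.2 and 31.2 CPM in ASP shGRIN2D and 41.3, 34.6, 39.9 and 37.4 CPM in ASP shSCR. These values did not overlap, and the difference of -0.33 ± 0.12 had an adjusted p of 0.257. Hnrnpa1, at 853, 810 and 815 CPM against 959, 997, 930 and 918 CPM, did not overlap either (-0.20 ± 0.10, adjusted p = 0.500). In the other direction Phf5a, a small zinc finger protein of SF3B, had 53.0, 53.3 and 44.4 CPM against 44.6, 33.0, 48.4 and 40.7 CPM (0.27 ± 0.13, adjusted p = 0.488) and the Sm protein Snrpd3 96.4, 105 and 106 CPM against 95.4, 68.6, 93.1 and 91.3 CPM (0.23 ± 0.12, adjusted p = 0.525). Ncbp2, the small subunit of the cap binding complex, differed by 0.18, the SF3B scaffold Sf3b3 by -0.15, the Prp19 partner Rbm22 by -0.15 and Hnrnpm by -0.13, none of them past the test. By role the medians lay between -0.03 for SR and hnRNP proteins and 0.03 for tri-snRNP proteins.

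Plrg1 also carries in its 3′ UTR a 7-base sequence, TCATGAA, that an earlier look at these libraries had picked out in genes lower with the Grin2d hairpin, so that its frequency among such genes is a description and no independent evidence. The sites of Plrg1 and of the 2 splicing regulators described below that were also lower, Esrp1 and Tia1, are printed here on the transcript strand with the 7 bases in capitals and 11 bases on either side, because they are the sequence these 3 genes share.
Plrg1: tatccggtcttTCATGAAagctcacttgc
Esrp1: ctttgcatatgTCATGAAgtgtttactag
Tia1, first site: catttttttaaTCATGAAattacttttca
Tia1, second site: tcctacaggtgTCATGAAgagttgacgta
In the GRCm38 annotation the 7 bases of Plrg1 lay in the exonic 3′ UTR at chr3:83072224-83072230 on the plus strand, 54 bases into a UTR of 185 in that transcript. Those of Esrp1 lay at chr4:11359228-11359234 on the minus strand, and those of Tia1 at chr6:86430506-86430512 and chr6:86431318-86431324 on the plus strand, all within 3′ UTRs. The sequence was searched on the transcript strand alone, in the 3′ UTRs of all protein-coding transcripts of a gene.

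Among 9857 genes at 5 CPM or more with an annotated 3′ UTR, 1313 (13.3%) held TCATGAA, as did 61 of the 128 called lower in ASP shGRIN2D (47.7%) and 5 of the 58 called higher (8.62%). Of the spliceosome genes 7 of 118 held it (5.93%), Plrg1 and 6 others, namely Rbm22, Hnrnpu, Tra2b, U2surp, Prpf4 and Crnkl1. The median log2 fold change of the 7 in ASP shGRIN2D was -0.03, against 0.01 for those without it, and -0.06 against 0.01 over all genes at that level. Crnkl1 (0.13), Prpf4 (0.07) and U2surp (0.01) were above 0 although they held it, and of the 7 Plrg1 alone passed the test. Of the 78 other splicing genes described below 12 held it, and those other than Esrp1 and Tia1 did not pass the test, from Mbnl3 (-0.37) to Rnpc3 (0.14). The part of this sequence in the lower level of Plrg1 was not tested.

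**Figure D3:**
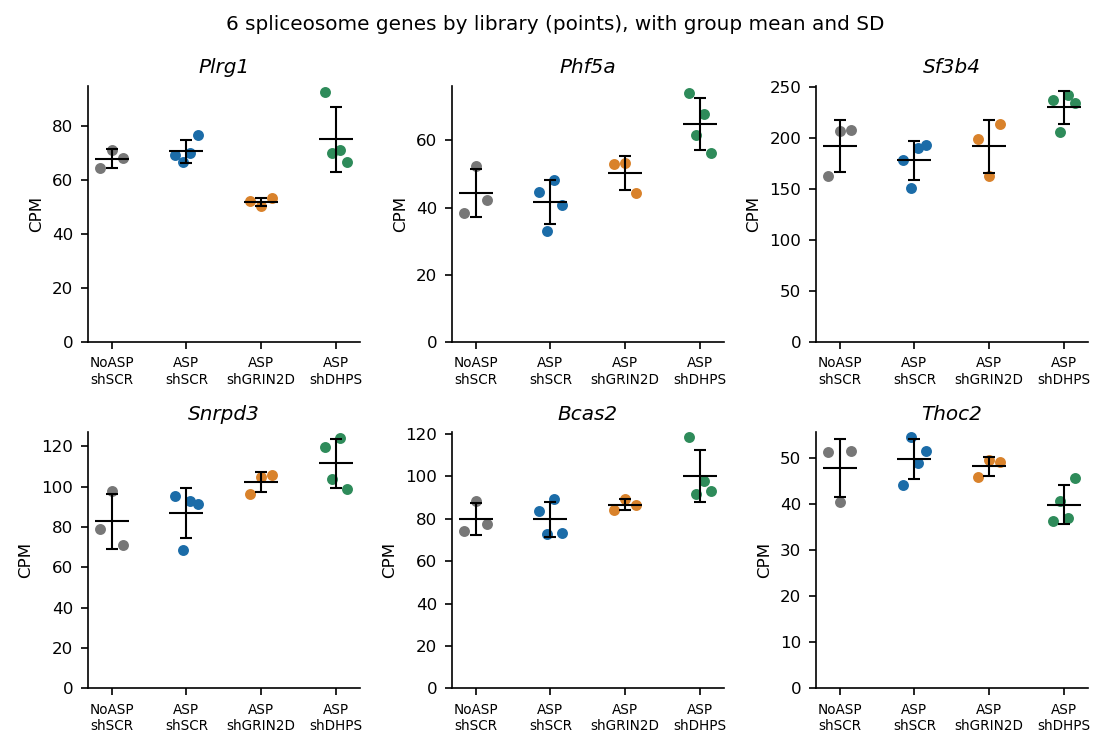
CPM in every library (points) of 6 spliceosome genes in the 4 groups, with the group mean and SD. Plrg1 sits at 50.3 to 53.3 CPM in the 3 ASP shGRIN2D libraries, below all others, and Phf5a and Sf3b4 are higher in the 4 ASP shDHPS libraries than in the 4 ASP shSCR libraries, without overlap.

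With the hairpin against Dhps, compared with ASP shSCR, 2 spliceosome genes were higher, Phf5a and Sf3b4, both parts of SF3B, the module of U2 snRNP that grips the branch point. Phf5a was at 74.2, 61.5, 68.0 and 56.3 CPM in ASP shDHPS and at 44.6, 33.0, 48.4 and 40.7 CPM in ASP shSCR. The groups did not overlap, the log2 fold change was 0.64 ± 0.12 (SE, 95% interval 0.39 to 0.89, adjusted p = 0.00427), and Phf5a remained called in all 17 alternative fits, at 0.54 to 0.72. NoASP shSCR, at 38.3, 52.4 and 42.4 CPM, lay with the other control.

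Sf3b4, which binds pre-mRNA next to the branch point, was at 238, 206, 242 and 235 CPM in ASP shDHPS and at 179, 151, 190 and 193 CPM in ASP shSCR. The groups again did not overlap, and the log2 fold change was 0.37 ± 0.10 (95% interval 0.15 to 0.58, adjusted p = 0.0463). Its call was lost with RLE size factors and with library size only (adjusted p = 0.0503 and 0.0508). It was also lost without any of the 4 ASP shSCR libraries or without replicate 1, 3 or 4 of ASP shDHPS, where the adjusted p was 0.0517 to 0.164, the last without replicate 2 of ASP shSCR (0.30). The 3 highest values of NoASP shSCR and ASP shGRIN2D, 207, 208 and 214 CPM, lay above the lowest ASP shDHPS library. The other 5 proteins of SF3B did not pass the test and lay on both sides of 0, from -0.17 for Sf3b1, the largest subunit, to 0.20 for Sf3b5.

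These were 2 of 118 members called (1.69%), both higher, where 6.93% of genes at 5 CPM or more were called in either direction and 2.8% higher, and 4.22% of all genes tested in either direction. DESeq2 called 7 members (5.93%, against 7.16% of all genes tested), adding Bcas2, Bud31, Snrpd3, Prpf4 and, lower, Thoc2. At an unadjusted p under 0.05 there were 18 members, 13 higher and 5 lower (15.3%, against 28.4%), and the groups did not overlap for 9 (7.63%, against 16.7%). A difference over 0.2 on the log2 scale was found for 18 members (15.3%, against 36.8%). The median of the members was 0.05, against 0.00 for all genes at that level, and 74 of 118 (62.7%, against 49.2%) were above 0. That median rested on particular libraries, being 0.00 without replicate 2 of ASP shSCR, 0.02 without replicate 1 of ASP shDHPS and 0.01 with a correction for transcript length and GC content.

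The next members were spread over several roles. Bcas2, a core protein of the Prp19 complex, had 118, 91.9, 98.0 and 93.1 CPM in ASP shDHPS and 83.9, 72.6, 89.1 and 73.1 CPM in ASP shSCR, without overlap (0.33 ± 0.10, adjusted p = 0.0546). Bud31, a partner of the same complex, had 93.0, 86.7, 96.4 and 72.7 CPM against 74.2, 56.0, 69.5 and 69.9 CPM (0.37 ± 0.11, adjusted p = 0.0636), and its groups overlapped through the lowest ASP shDHPS library. Snrpd3 had 120, 104, 124 and 99.0 CPM against 95.4, 68.6, 93.1 and 91.3 CPM (0.36 ± 0.11, adjusted p = 0.0746), without overlap.

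In the other direction stood Thoc2, the scaffold of the THO complex, at 36.3, 40.8, 37.0 and 45.7 CPM against 44.2, 54.7, 49.1 and 51.5 CPM (-0.32 ± 0.10, adjusted p = 0.0832). The other THO proteins, Thoc1 and Thoc3, differed by 0.20 and 0.11. Prpf4, which binds U4/U6 RNA, differed by 0.29 (adjusted p = 0.0899), Lsm2 of the U6 ring by 0.31 (adjusted p = 0.0964) and Rbmx, an hnRNP, by -0.26 (adjusted p = 0.254). None of these genes passed the test.

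By role the medians in ASP shDHPS were 0.14 for the ring proteins (12 of 14 above 0), 0.13 for the cap binding, exon junction and THO proteins (9 of 11), 0.09 for the tri-snRNP proteins (13 of 19), 0.04 for the U1 and U2 proteins (16 of 29), 0.02 for the Prp19 group (15 of 26) and -0.04 for the SR and hnRNP proteins (9 of 19). Inside these roles, complexes listed after the values were seen gave 7 of 7 Sm proteins above 0 (0.10 to 0.36), 5 of 7 LSm proteins, 8 of 11 SR proteins and 1 of 8 hnRNPs. Without both replicate 2 libraries of the control hairpin the median of the 14 ring proteins was 0.07 and without replicate 1 of ASP shDHPS it was 0.08, with 11 of 14 above 0 in each case. In the same fits the medians were 0.04 and 0.08 for the cap binding, exon junction and THO proteins. They were 0.03 and 0.02 for the tri-snRNP proteins. Of the SR and hnRNP genes 2 of 19 were above 0 in each fit.

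**Figure D4:**
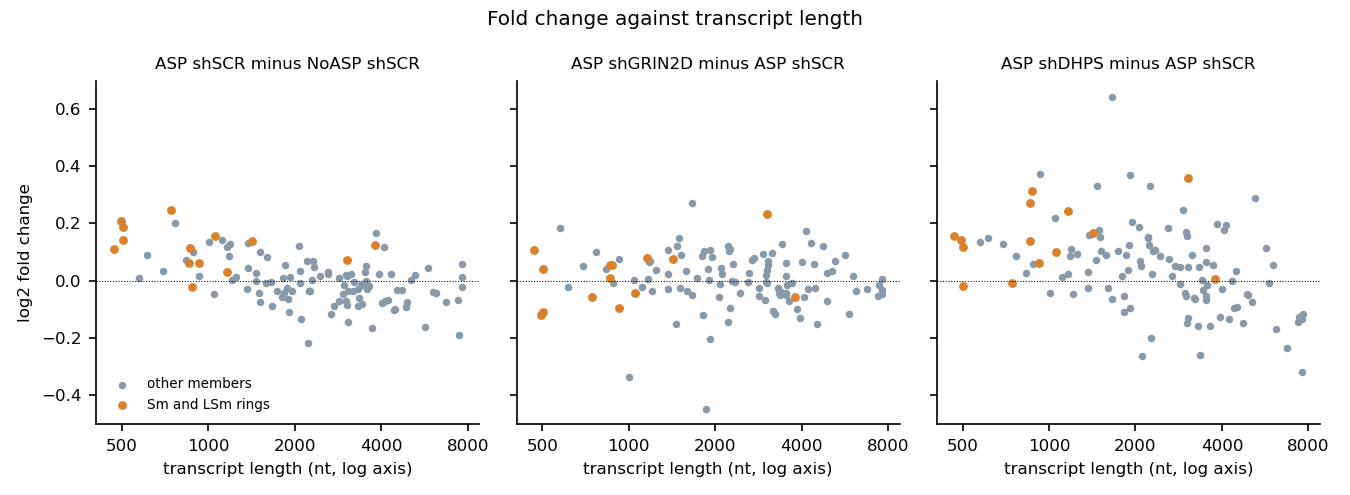
Log2 fold change of each of the 118 spliceosome genes against transcript length in nt on a log axis, in the 3 comparisons with ASP shSCR, with the 14 Sm and LSm ring genes in orange. In the aspartate and the Dhps comparison short transcripts lie mostly above 0 and long ones mostly below (Spearman's rho -0.48 and -0.45).

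Fold changes ran with the length of the transcript with aspartate and with the Dhps hairpin, and only weakly with the Grin2d hairpin. Across the 118 genes Spearman's rho between length and log2 fold change was -0.48 with aspartate, -0.14 with the Grin2d hairpin and -0.45 with the Dhps hairpin, and over the 10184 genes at 5 CPM or more with an annotated length it was -0.16, -0.08 and -0.37. These are correlations across genes that share the same libraries, and the comparisons share ASP shSCR. With aspartate 30 of the 39 shortest members (up to 1663 nt) and 12 of the 39 longest (3222 nt or more) were above 0, with medians of 0.07 and -0.03. With the replicate block these were 23 and 14, with medians of 0.04 and -0.02. With the Dhps hairpin it was 32 and 13, with medians of 0.10 and -0.05. With the Grin2d hairpin it was 24 and 14, with medians of 0.03 and -0.03, and 19 and 20 with the replicate block. All genes of the same lengths had medians of 0.04 and -0.01 with aspartate and 0.10 and -0.08 with the Dhps hairpin.

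The ring proteins, with a median length of 867 nt against 2299 nt for all members, were among the shortest. With each library corrected for a smooth trend of length and GC content, the median of the ring proteins was 0.05 with aspartate (11 of 14 above 0) and 0.02 with the Dhps hairpin (10 of 14), and the Dhps medians of the 39 shortest and 39 longest members became 0.00 and 0.03. Phf5a, Sf3b4 and Prpf4 were called in that fit and Plrg1 kept its call with the Grin2d hairpin.

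**Figure D5:**
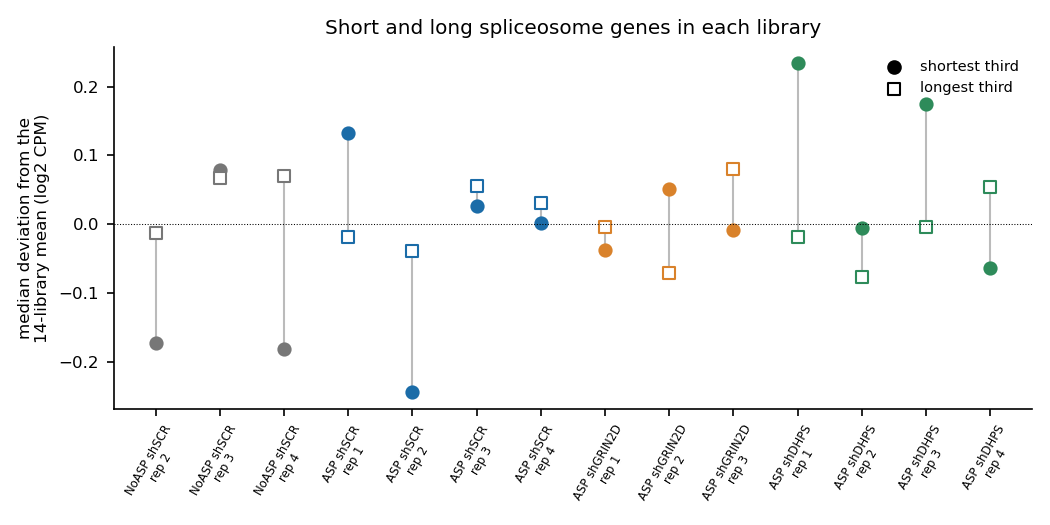
Median deviation from the mean over 14 libraries, on the log2 CPM scale, of the 39 shortest (filled circles) and 39 longest (open squares) spliceosome genes in each library, colored by group. The short genes run from -0.24 in replicate 2 of ASP shSCR to 0.23 in replicate 1 of ASP shDHPS, and the long genes from -0.08 to 0.08.

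The level of short transcripts differed among libraries of the same group. The median deviation of the 39 shortest members from their mean over all libraries, on the log2 scale, was -0.24 in replicate 2 of ASP shSCR and 0.13, 0.03 and 0.00 in the other 3 libraries of that group. Without aspartate it was -0.17, 0.08 and -0.18, with the Grin2d hairpin -0.04, 0.05 and -0.01, and with the Dhps hairpin 0.23, -0.01, 0.18 and -0.06. Each group with 4 libraries thus held libraries on both sides of 0. The 39 longest stayed between -0.08 and 0.08 in all 14 libraries. The part of this spread in the medians above was not tested beyond the correction for length and the fits without single libraries.

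Set side by side, the silenced lines differed from each other most clearly in Plrg1. It was higher in ASP shDHPS than in ASP shGRIN2D by 0.54 ± 0.11 on the log2 scale (95% interval 0.31 to 0.76, adjusted p = 0.00555), in 4 of 4 against 3 of 3 libraries without overlap, and remained called in all 16 alternative fits. The highest ASP shDHPS library, replicate 1 at 92.9 CPM, stood apart from the other 3, and without it the difference was 0.42 (adjusted p = 0.00855). No other member passed the test (1 of 118, 0.847%, against 4.66% of genes at 5 CPM or more and 2.82% of all genes tested, and 2.12% of the former in this direction), and DESeq2 added Rbm22. At an unadjusted p under 0.05 there were 14 members (11.9%, against 20.5%), and the groups did not overlap for 14 (11.9%, against 21.5%). The median of the members was 0.04 (81 of 118 above 0, 68.6%, against 50.5%), and 0.00 without replicate 1 of ASP shDHPS.

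Rbm22, which holds the catalytic RNA core, was at 53.8, 52.9, 58.2 and 52.7 CPM in ASP shDHPS and 48.2, 42.1 and 42.9 CPM in ASP shGRIN2D (0.29 ± 0.09, adjusted p = 0.111). These groups did not overlap, and ASP shSCR, at 46.6 to 52.5 CPM, overlapped the Grin2d group. Phf5a differed by 0.37 (adjusted p = 0.155, 95% interval 0.10 to 0.65), so that its rise with the Dhps hairpin was not shown to differ from its value with the Grin2d hairpin. Thoc2 differed by -0.27 (adjusted p = 0.228), Snrnp27 by 0.29 (0.234), Sf3b5 by 0.29 (0.229), Bud31 by 0.29 (0.240) and Snrpb2, a protein of U2 snRNP, by 0.25 (0.251), the values in parentheses being adjusted p.

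Splicing also needs proteins outside the KEGG set, and 78 of them in the table were taken in 4 classes. None of 78 passed the test with aspartate (0 by edgeR, 0 by DESeq2, 0 at an unadjusted p under 0.05). With the Grin2d hairpin 2 of 78 passed it (2.56%, against 1.89% of genes at 5 CPM or more), a share near that background, and both were lower regulators of alternative splicing. Esrp1, an epithelial splicing regulator, was at 56.4, 53.4 and 58.4 CPM against 76.9, 85.8, 79.9 and 82.9 CPM in ASP shSCR (-0.54 ± 0.10, adjusted p = 0.00391). Tia1, which favours weak 5′ splice sites, was at 34.9, 36.3 and 34.7 CPM against 48.3, 48.4, 50.9 and 53.2 CPM (-0.51 ± 0.10, adjusted p = 0.00835). Neither gene's groups overlapped, and Tia1 lost its call without replicate 1 or 3 of ASP shGRIN2D (adjusted p = 0.0681 and 0.0678).

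With the Dhps hairpin 2 of 78 passed the test (2.56%, against 6.93%). Esrp1 fell as well, to 57.7, 60.5, 57.0 and 63.0 CPM (-0.45 ± 0.09, adjusted p = 0.00530), and so did Rbm47, another RNA-binding protein of epithelial splicing, at 32.4, 41.3, 36.6 and 40.5 CPM against 48.8, 55.2, 48.5 and 51.3 CPM (-0.44 ± 0.10, adjusted p = 0.0113). Of the 7 epithelial markers, 2 fell with the Grin2d hairpin, Krt7 and Krt18 (-0.64 and -0.46, adjusted p = 0.000297 and 0.0190), and 4 with the Dhps hairpin, Krt19, Krt7, Krt14 and Epcam (-0.88, -0.57, -0.54 and -0.52). Cdh1 was at -0.06 and 0.04 in these comparisons and Krt14 at 0.05 with the Grin2d hairpin, none past the test. Their part in the lower Esrp1 and Rbm47 was not tested. Both comparisons share ASP shSCR, and Esrp1 differed between the silenced lines by 0.09 ± 0.10 (adjusted p = 0.708). Rbm47 did not pass the test with the Grin2d hairpin (-0.32 ± 0.10, adjusted p = 0.186), although its groups did not overlap there either. Between the silenced lines Rbm47 differed by -0.11 ± 0.10 (adjusted p = 0.652). No gene of the list passed the test between these lines (0 of 78 by edgeR, against 4.66% of genes at 5 CPM or more, 9 or 11.5% at an unadjusted p under 0.05, against 20.5%, and 3 by DESeq2).

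None of the 8 SR protein kinases, 10 proteins of the minor spliceosome and 16 snRNP assembly proteins passed the test in any comparison with ASP shSCR by edgeR. The assembly proteins, which load Sm rings onto snRNA, had a median of 0.11 with the Dhps hairpin (13 of 16 above 0 or 81.2%, against 49.2% of genes at 5 CPM or more), and 3 were at an unadjusted p under 0.05 (18.8%, against 28.4%). This median is that of the fit reported alone. Of these 3, Wdr77 (77.2 CPM) and Strap (167 CPM) were lowest within ASP shSCR in replicate 2, and Ddx20 (37.4 CPM) was highest there. Of 9 cell cycle genes given beside the members, Ccne1 fell with the Grin2d hairpin (-0.99, adjusted p = 0.00835) and rose with the Dhps hairpin (0.61, adjusted p = 0.0397), and Mki67 fell with the Dhps hairpin (-0.51, adjusted p = 0.0231). Their part in the values of the spliceosome genes was not tested.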

How the data were processed

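The count table covers 14 libraries in 4 groups, mapped by the sample descriptions. Per the labels and the study's methods, the authors trimmed reads (Trim Galore 0.6.6), checked them (FastQC 0.11.9), mapped them to GRCm39 with STAR 2.6.1, quantified genes with Salmon 1.4.0 and deposited the estimates as whole-number counts, after removing genes not expressed in at least 2 replicates of any condition. Salmon divides reads among similar transcripts by estimation, so that counts of paralogues are uncertain.

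From these counts, edgeR 4.0.16 (R 4.3.3) gave TMM factors (0.984 to 1.02), CPM, and quasi-likelihood tests of group differences fitted to all 14 libraries, with Benjamini-Hochberg adjustment over 19525 genes and a threshold of 0.05. SEs are the coefficient over the root of F, and intervals use the 95% t quantile. Lengths, GC content and 3′ UTRs came from GENCODE transcripts on GRCm38, taking for length the transcript with the longest coding sequence, which need not be the form expressed (all 118 members and 18948 genes matched by gene ID). CPM per kb used that length.

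Alternatives were DESeq2 1.42.0, other scalings, a count filter, a robust prior, a replicate block, only the groups compared, each library left out, and, added after seeing the data, a length and GC correction (natural splines, 4 degrees of freedom), the fit without replicate 2 of both shSCR groups and a block on the 7 shSCR libraries alone. The fits were tested on simulated data. Same-numbered libraries of ASP shSCR and NoASP shSCR deviated together over genes (r = 0.51, 0.29 and 0.20). Of the 3 shared numbers, 3 ASP shSCR and 2 NoASP shSCR libraries correlated best with their own number. The labels do not state a pairing, so the block is given as an alternative. In the other comparisons at least 1 correlation was under 0.1. Libraries of a group differed beyond sampling noise (chi-square per degree of freedom 6.16 to 57.9 over 18 pairs).

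Members, role lists, other splicing genes, markers and the naming rule were chosen with earlier results of these data known. Named were the members called, the smallest p up to 8 in all per comparison, the smallest p per role in both knockdown comparisons, the 3 highest and 3 lowest means, the 5 largest coefficients of variation and the other splicing genes called. Magoh, Tra2a, Tra2b, Srsf1, Sf3b1, Thoc1, Thoc3 and the genes with the 7-base sequence were named after their values were seen.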

Additional observations from a re-analysis of the deposited data

Results flagged for a closer look

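In groups of 4, 4 of 68 pairs of a named gene and a group held a library far from the other 3, where chance flags about 1 in 20 groups. In replicate 1 of ASP shDHPS, Hnrnpa1 was at 1107 CPM against 784 to 834 in the other 3, Plrg1 at 92.9 against 66.7 to 71.1, and Sf3b5 at 67.7 against 55.6 to 57.2. In replicate 2 of ASP shSCR, Snrpd3 was at 68.6 CPM against 91.3 to 95.4. These are the libraries at the ends of the first principal component of the members.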

How the results depend on the processing

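None of the fold changes recomputed in the alternatives for single named genes reversed its direction. The medians of the 118 genes moved by less than the spread between libraries (0.0811 on the log2 scale) in all of them. That spread is larger than each median in the fit reported, so a median could vanish within it. The Dhps median ran from 0.004 to 0.077, and that between the silenced lines from -0.001 to 0.069. With aspartate 0 members and 0 other splicing genes were called in all 17 alternatives. These include the replicate block, which treats same-numbered libraries as pairs (0 over all libraries, 0 on the 7 shSCR libraries alone). Signs of members near 0 did change: with aspartate 1 of 19 SR and hnRNP genes was above 0 with the block, against 7 in the fit reported, and with the Grin2d hairpin 3 of 14 ring genes and 11 of the 39 shortest were above 0 without both replicate 2 libraries of shSCR, against 8 and 24.

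With the Grin2d hairpin the replicate block called 2 members, Plrg1 and Snrnp27 (1.69%, against 3.13% of all genes tested). Leaving out each library called 0 to 1 member and 1 to 2 other splicing genes. With the Dhps hairpin the members called, 2 in the fit reported, were 7 by DESeq2, 1 with RLE size factors, 1 with library size only, 4 with a robust prior, 12 with the replicate block, 1 without both replicate 2 libraries of shSCR, 3 with a count filter, 3 with the length and GC correction and 1 to 5 with each library left out (5 without replicate 4 of ASP shDHPS). The other splicing genes called, 2 in the fit reported, were 4 by DESeq2 and 7 with the block.

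Between the silenced lines the members called were 2 by DESeq2 and 4 with the block, and the other splicing genes, 0 in the fit reported, were 3 by DESeq2, 1 with library size only, 1 with the count filter, 6 with the block, 2 with the length and GC correction, 1 without both replicate 2 libraries of shSCR, 1 with only the groups compared and 0 to 1 with each library left out. Of all genes tested DESeq2 called 4.71% between these lines and the block 7.52%, against 1.69% and 3.39% of the members. The cause of the moves in these counts was not tested. Whether the numbers pair the samples was not settled in these 3 comparisons or with aspartate. With the Dhps hairpin same-numbered libraries correlated at 0.26, 0.20, 0.20 and 0.04. There 3 of 4 ASP shDHPS libraries and 2 of 4 ASP shSCR libraries correlated best with their own number. The correlations were -0.10, -0.12 and 0.04 with the Grin2d hairpin, and 0.01, 0.03 and 0.23 between the silenced lines.

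With 3 or 4 libraries a group the median SE of a member was 0.098 to 0.107 on the log2 scale. The 95% interval reached a median of 0.20 to 0.22 to either side. These intervals are not adjusted for the number of genes tested, so larger differences could be missed too. Bud31 (0.37 with the Dhps hairpin) and Snrnp27 (-0.33 with the Grin2d hairpin) did not pass the test, while Sf3b4 (0.37 with the Dhps hairpin) did.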

Other observations

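Variation across all 14 libraries was largest, as a share of the mean, for Phf5a (coefficient of variation 22.7%), followed by Magohb (21.0%), the SF3A protein Sf3a2 (18.7%), Prpf40b (17.5%) and Lsm5 (17.1%), where the median member had 10.2%. Magohb ran from 7.74 CPM in replicate 2 of ASP shSCR to 16.9 CPM in replicate 1 of the same group. Sf3a2, at 65.9, 102, 123 and 115 CPM in ASP shDHPS and 82.4, 114 and 122 CPM in NoASP shSCR, varied as much within groups as between them. The steadiest member was Eftud2, the GTPase of U5 snRNP, at 5.41%.

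The 12 RNA helicases of the set, chosen after values were seen, lay mostly below 0 in all 3 comparisons with ASP shSCR. Above 0 were 2 of 12 with aspartate, 4 with the Grin2d hairpin and 3 with the Dhps hairpin. Of genes at 5 CPM or more, 51.5%, 51.6% and 49.2% were above 0. Long members also lay mostly below 0. Of the 39 longest (3222 nt or more), 12 were above 0 with aspartate, 14 with the Grin2d hairpin and 13 with the Dhps hairpin. The part of transcript length in the helicase counts was not tested. None of the 12 helicases passed the test. Dhx16, which remodels the spliceosome before the first step, was at 45.4, 68.0, 61.9 and 64.4 CPM in ASP shDHPS and 73.5, 73.6, 70.6 and 68.9 CPM in ASP shSCR, without overlap (-0.26 ± 0.11, adjusted p = 0.192), with 1 library, replicate 1, well below the rest.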
